A study of Mus musculus and Rattus norvegicus with 28 samples.

Results

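Constant distal accessible regions were stretches of open chromatin away from transcript starts that gave an ATAC-seq peak in nearly every library of perinatal mouse cardiomyocytes. Overlapping peaks of the 8 libraries were merged at an overlap of 1 bp into 113857 regions, and 9132 of these held a peak in at least 7 libraries. The members were the 1842 of these 9132 regions (20.2%) whose midpoint lay more than 2.5 kb from the start of every transcript in the deposited annotation. They made up 1.62% of all merged regions and 2.32% of the 79442 distal ones. A peak was present in all 8 libraries for 888 members and in exactly 7 for 954. Because the members were chosen by peak presence and distance, their presence, strength and distance are described without a test.

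The study profiled left ventricular cardiomyocytes of wild-type C57BL/6 mice, males and females, at embryonic day 18.5 (E18.5) and at postnatal days 1, 3 and 7 (P1, P3 and P7). Each time point had 2 ATAC-seq libraries and 2 RNA-seq libraries, and no group received a treatment. Cells were freed with trypsin and collagenase and separated from non-cardiomyocytes by attachment to a dish, so that they were enriched but not sorted. The study reports high purity by staining for cardiac troponin T, also at P7. It adds that the promoters of Pecam1 and Dcn, markers of other cell types, were not accessible. The study calls the libraries of both assays biological replicates without saying which animals or litters went into each, and p-values measure the spread between these samples. The peak names in the lists of E18.5 replicate 1 and P7 replicate 1 begin with the same prefix, whereas each of the other 6 lists has its own. The contents of the pair differ, with 13149 and 49113 peaks, and both were assigned by the labels. The members numbered 3158 without E18.5 replicate 1 and 1877 without P7 replicate 1, with a peak required in at least 6 of the other 7.

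ATAC-seq inserts sequencing adapters where DNA is not wrapped in nucleosomes. Accessible DNA away from promoters includes enhancers, which bind transcription factors and can act on a promoter over a distance, and insulator sites that bind CTCF. Factors of the GATA, MEF2, NKX2-5, TBX and TEAD families bind enhancers of heart muscle genes, and AP1, a dimer of FOS and JUN proteins, binds enhancers in many cell types. The gene nearest to a distal region is not necessarily the one it acts on.

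The sequences below surround motif matches in members that the results turn on. They are from RefSeq's mouse assembly GRCm38 (mm10), plus strand, read 5′ to 3′, with the matched motif in capitals. The first pair held the highest mean peak strength among members with a CTCF match and with an AP1 match. The Zfp286 sequence (chr11:62756854-62756985) lay in an intron, in a member 3.57 kb downstream of the nearest start. The Gm43980 sequence (chr6:49236349-49236475) lay between genes at 18.3 kb, and its first few bases precede the start of the member (chr6:49236355-49236700), which holds the match.
Zfp286, CTCF: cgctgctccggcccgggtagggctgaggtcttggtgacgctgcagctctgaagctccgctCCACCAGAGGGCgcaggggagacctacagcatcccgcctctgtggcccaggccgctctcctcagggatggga
Gm43980, AP1: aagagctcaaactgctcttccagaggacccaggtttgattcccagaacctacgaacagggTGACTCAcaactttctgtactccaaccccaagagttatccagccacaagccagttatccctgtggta
The next pair carried a MEF2 match near a gene whose RNA changed strongly. The Myh7 sequence (chr14:55004053-55004182) lay between genes upstream of a gene that fell, and the Cp sequence (chr3:19953814-19953943) between genes upstream of a gene that rose.
Myh7, MEF2: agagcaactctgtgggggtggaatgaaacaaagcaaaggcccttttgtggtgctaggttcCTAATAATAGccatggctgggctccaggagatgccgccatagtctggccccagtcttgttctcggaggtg
Cp, MEF2: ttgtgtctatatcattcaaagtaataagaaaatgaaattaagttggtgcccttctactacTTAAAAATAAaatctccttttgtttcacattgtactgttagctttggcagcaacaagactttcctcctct
The last sequence carried an AP1 match upstream of a gene that rose, Nnmt, in an intron (chr9:48707595-48707721).
Nnmt, AP1: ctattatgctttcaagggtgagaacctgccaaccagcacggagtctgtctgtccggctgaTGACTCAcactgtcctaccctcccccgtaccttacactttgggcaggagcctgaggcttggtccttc

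Peak strength was read as the fold enrichment at the summit, the ratio of signal to local background in the deposited lists. The median over members was 5.82 and 5.96 at E18.5, then 7.10 and 5.05 at P1, 8.48 and 9.07 at P3, and finally 6.71 and 5.49 at P7 (replicates 1 and 2). Both P3 libraries were higher than every other library, and the P1 pair lay far apart. Constant promoters, the 7257 regions of at least 7 libraries within 2.5 kb of a start, had medians of 6.91, 6.41, 7.17, 5.19, 8.02, 9.30, 6.44 and 6.57 in the same order. Distal regions held by 2 to 6 libraries, 37863 in all, had medians of 5.08, 5.19, 5.41, 4.70, 6.04, 5.82, 4.49 and 4.09. Members thus had a higher median than the less shared distal regions in all 8 libraries, as their choice by peak presence favours, and lay above the constant promoters in P3 replicate 1 and P7 replicate 1.

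**Figure D1:**
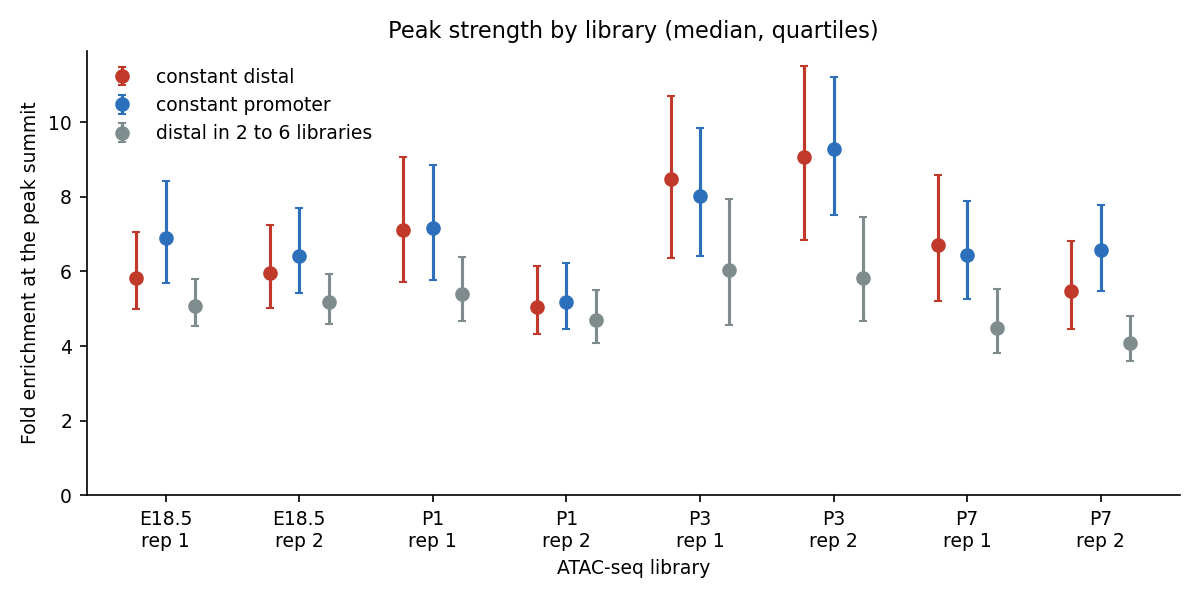
Fold enrichment at the peak summit (vertical axis, ratio) in each ATAC-seq library (horizontal axis) for constant distal regions, constant promoters and distal regions held by 2 to 6 libraries. Points are medians and bars the quartiles over regions, and the constant distal median runs from 5.05 in P1 replicate 2 to 9.07 in P3 replicate 2.

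The lists differed in length, from 13149 peaks in E18.5 replicate 1 to 95257 in P3 replicate 1. Members took 11.99% and 11.3% of the peaks at E18.5 but 1.98% and 3.54% at P3. Within its own list, the median member stood at percentile 47.6 and 58.0 of fold enrichment at E18.5, then 77.4 and 63.7 at P1, 86.4 and 82.2 at P3, and finally 84.2 and 73.1 at P7. The percentile was thus lowest in the shortest lists, and the part of list length in it was not tested. Of the 954 members held by exactly 7 libraries, 428 lacked a peak in P1 replicate 2, 282 in E18.5 replicate 1 and 183 in E18.5 replicate 2, whereas 4 to 35 lacked it in any other library. The missing library was thus mostly 1 of the 3 with the shortest lists.

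Near the limits of the rule, the mean fold enrichments of members and non-members were close. The median of the mean fold enrichment was 7.45 for members held by 8 libraries, 6.51 for those held by exactly 7, and 6.44 for the 1833 distal regions held by exactly 6, which fell just outside. Each mean covered only the libraries that held a peak, so these sets were not averaged over the same libraries. At exactly 7, the libraries most often missing were P1 replicate 2 and E18.5 replicates 1 and 2. Their medians over members were low, at 5.05, 5.82 and 5.96, which can raise the mean of regions that lack them. The 72 members with a midpoint at 2.5 to 3 kb had a median of 6.17, and the 87 regions of at least 7 libraries at 2 to 2.5 kb had 6.07. Within a member the strongest library exceeded the weakest by a median ratio of 2.15. For the 55 members with a mean fold enrichment above 15 this ratio was 1.52. Over members, Spearman's correlation of fold enrichment ranged from 0.544 to 0.820 in the 4 pairs of libraries of the same time point and from 0.242 to 0.823 in the 24 pairs of different time points, which overlap. These correlations share the regions and differ in depth, and are given as a description.

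Members lay at a median of 11.6 kb from the nearest transcript start (quartiles 6.15 and 23.5 kb, furthest 393 kb). The median was 13.8 kb for distal regions held by 2 to 6 libraries and 15.2 kb for those held by 1 library. A distance of 5 to 10 kb was the commonest bin, with 27.7% of members against 22.7% of the regions of 2 to 6 libraries. Beyond 50 kb the order was the opposite, with 5.10% of members at 50 to 100 kb and 2.12% further out, against 8.74% and 3.42%. By annotation, 881 members (47.8%) lay in an intron, 79 (4.29%) in an exon and 882 (47.9%) between genes. Upstream (879) and downstream (963) sides of the nearest start held similar numbers.

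**Figure D2:**
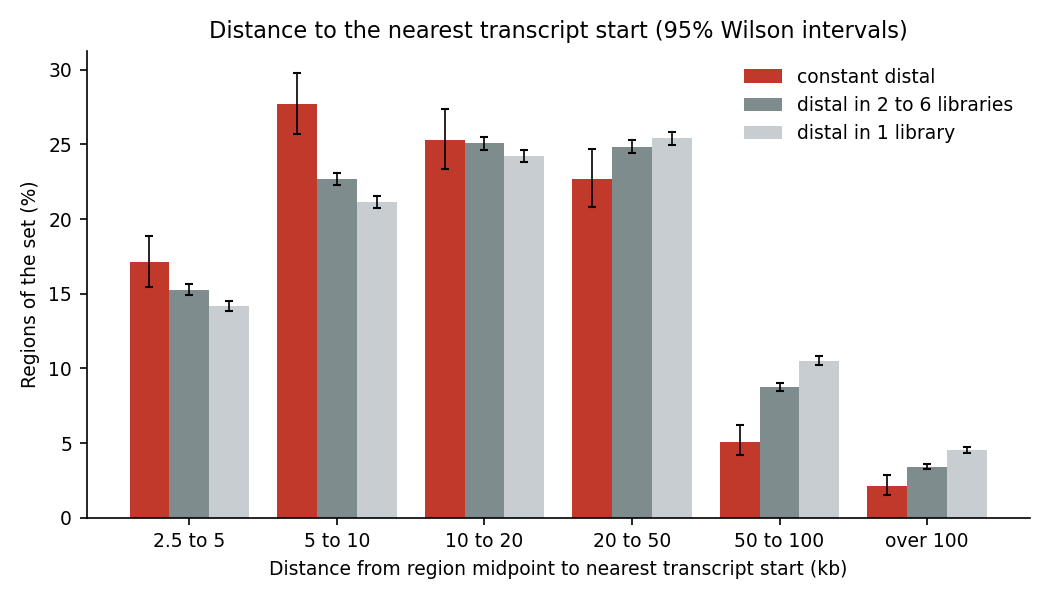
Share of regions (vertical axis, percent of the set) by distance from the midpoint to the nearest transcript start (horizontal axis, kb) for constant distal regions and for distal regions held by 2 to 6 libraries or by 1. Bars of error are 95% Wilson intervals, and 27.7% of the constant distal regions fall at 5 to 10 kb.

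A constant promoter lay within 50 kb of 827 members, or 44.9% (95% Wilson interval 42.6 to 47.2%). The share was 33.2% for the distal regions of 2 to 6 libraries and 28.5% for those of 1 library. The median gap to the nearest constant promoter was 59.5 kb for members, 92.5 kb for the former and 119 kb for the latter. The intervals here and below cover counting error over regions only, and neighbouring regions are not independent. Members were 689 bp wide in the median (194 to 2516 bp), and the standard deviation of a member's summit over libraries had a median of 51.9 bp, against 62.0 bp at constant promoters.

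Most members stood alone. Another member lay within 12500 bp, the distance often used to join enhancers into larger ones, for 170 of the 1842 (9.23%, interval 7.99 to 10.6%). They formed 65 pairs and 9 clusters of 3 or more, and the median gap from a member to its nearest other member was 169 kb. The share depends on how many regions a set holds. The set closest in size, the 1833 distal regions of exactly 6 libraries, had 7.86%, with a median gap to the nearest other region of 223 kb.

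The 2 largest clusters lay in a row on chromosome 6, between genes, and together held 18 members over 124 kb (chr6:47654806-47778727). The cluster nearest to Gm25283 held 8 members and that nearest to Rny3 held 10, and a stretch of 53.0 kb separated them. Neighbouring midpoints had a median spacing of 4.39 kb (0.623 to 5.41 kb). The array was a tandem repeat by sequence: in the median member, 100% of the 31-base words were also found in another of the 18, and 37.7% in the member with fewest. The following 80-base word, from the first member (chr6:47655147-47655226, plus strand, GRCm38), is shown because 16 of the 18 held it.
Chromosome 6 array word: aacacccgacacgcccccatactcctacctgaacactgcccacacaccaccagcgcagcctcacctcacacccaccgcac
All 18 held a peak in 8 libraries, with mean fold enrichments of 2.69 to 8.69 (median 3.42), below the median of 6.92 over all members. The strongest was the last of the row, 3.29 kb from Rny3, where the values were 8.41 and 9.02 at E18.5, then 9.66 and 10.8 at P1, 7.28 and 7.75 at P3, and finally 8.20 and 8.40 at P7, and its median word occurred once in the genome. Reads from the near-identical units cannot be told apart by sequence, so each unit's value is uncertain. Rny3 encodes a Y RNA, a small noncoding RNA bound by the Ro protein, and was listed at 0.19 FPKM (fragments per kilobase of transcript, scaled to the aligned reads of the library) in E18.5 replicate 1 and at 0 in the other 7 RNA-seq libraries. Gm25283, a predicted gene, was listed at 0 in all 8.

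The third cluster, on chromosome 10 (chr10:3109519-3113958) near the predicted genes Gm30674 and Gm3318, held 4 members, of which the median one was 99.1% repeat by the reference's soft masking. Of the 6 clusters of 3 members, the Miga1 cluster (chr3:152304285-152315090) lay in introns of the gene, which encodes the mitochondrial outer membrane protein mitoguardin 1. The Bahcc1 cluster (chr11:120304940-120316881), near a gene for a chromatin protein with a BAH domain, and the Kdm6b cluster, near a gene for a demethylase of histone H3, lay on chromosome 11. The Gm26759, Gm47543 and Gm15582 clusters were named after predicted noncoding genes. An AP1 match was held by 2 of the 3 members in the Gm26759 and Gm47543 clusters and by 1 in the Miga1 and Gm15582 clusters. The rest of these 9 clusters, among them the 3 largest, held none.

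The members included sequences that recur in the genome. Words of 31 bases were taken at 9 places in a 401-bp window around each midpoint and counted on both strands of the 21 chromosome sequences. Copies outside these sequences were not counted. The median word occurred at least 2 times for 242 members (13.1%, interval 11.7 to 14.8%) and at least 10 times for 139 (7.55%). The corresponding share for at least 2 times was 2.78% of constant promoters and 8.46% of distal regions held by 2 to 6 libraries. Recurring members were most frequent among the strongest. They were 31 of the 50 members with the highest mean fold enrichment (62%), 35 of the next 150 (23.3%), 58 of the following 800 (7.25%) and 118 of the last 842 (14.0%). Of the same 50 strongest, 14 lay within 1000 kb of an end of the chromosome sequence, a distance that includes unknown bases (N). Of the 50, 5 held at least 10% of words that also occur in the mitochondrial genome. Those 5 were all such members of the 1842.

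The strongest 5 members held peaks in all 8 libraries. The Gm48224 region (chr12:78350815-78351223), in an intron 29.6 kb downstream of the nearest start, had a mean fold enrichment of 31.6. Its values were 28.8 and 31.9 at E18.5, then 36.2 and 31.6 at P1, 32.3 and 30.6 at P3, and finally 31.5 and 29.9 at P7, and its median word occurred once. The regions nearest to Gm15069 (chrX:170758143-170758569, mean 30.4), CR555305.3 (chr19:61331192-61331621, 30.1) and Gm23941 (chr3:159939306-159939764, 29.0) held words that occur 1864, 1835 and 1835 times. They lay 273, 100.2 and 100.1 kb from the end of their chromosome sequence, with unknown bases included. The Gm47397 region (chr12:97061318-97061892, 28.8) shared 81.9% of its words with the mitochondrial genome. Reads of such sequences can come from any of their copies, so that the place of these peaks is uncertain. The highest library of these 5 exceeded the lowest by a ratio of 1.17 to 1.26.

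**Figure D3:**
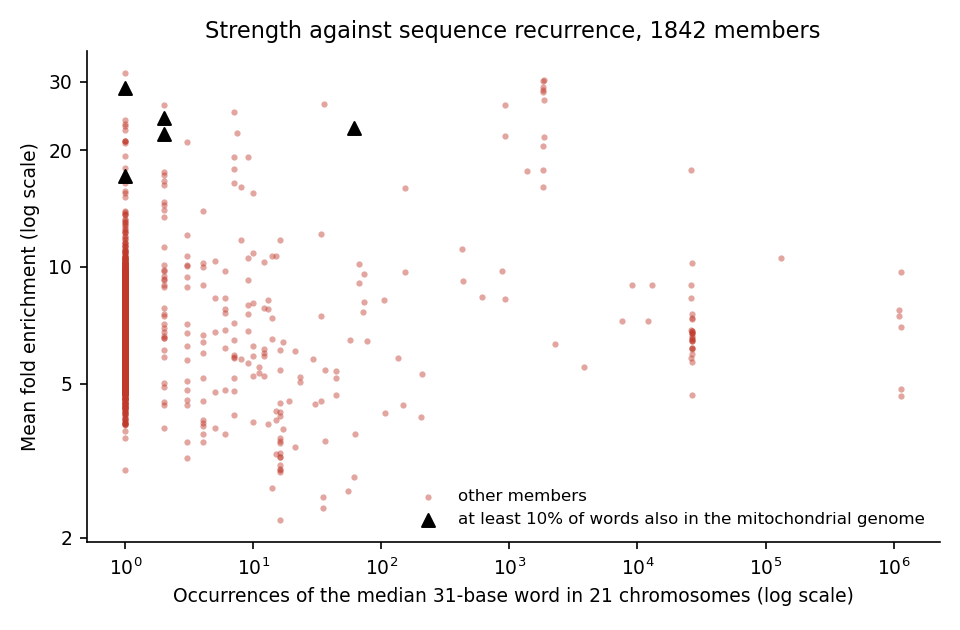
Mean fold enrichment of each constant distal region (vertical axis, log scale) against the number of times its median 31-base word occurs in the 21 chromosome sequences (horizontal axis, log scale). Each point is 1 of 1842 members, the 5 triangles hold at least 10% of words also found in the mitochondrial genome, and 3 of the 5 strongest members sit above 1000 occurrences.

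Members were intermediate in base composition. Their median GC content in the same window was 53.6%, against 48.9% for distal regions held by 2 to 6 libraries and 65.6% for constant promoters. The window was more than 50% soft-masked in 180 members (9.77%).

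Motif matches were counted in this window on both strands, and a match is a description of letters and not of binding. For each motif the share is given for members, for distal regions of 2 to 6 libraries and for constant promoters in that order. The letters CATTCC of TEAD factors were matched in 32.8%, 32.9% and 13.8% and the letters CACTTNA of NKX2-5 in 16.5%, 18.1% and 8.30%. For TEAD the shares of both kinds of distal region were close, and for NKX2-5 members were the lower. The letters AGATAAG, bound by GATA factors, were matched in 7.71% (interval 6.58 to 9.02%), 6.79% and 1.39%. The MEF2 consensus was matched in 116 members, or 6.30% (interval 5.28 to 7.50%), against 4.84% and 1.296%, so that the share of less shared distal regions lay below the interval of members for MEF2 and within it for GATA. The AP1 letters TGACTCA were matched in 489 members, or 26.5% (24.6 to 28.6%), against 29.3% and 4.96%, and in 31.4% of the regions of exactly 6 libraries.

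The promoter-type motif GGGCGG of KLF and SP factors was matched in 418 members (22.7%), between the 9.72% of less shared distal regions and the 74.9% of constant promoters. The CTCF consensus was rare, with 33 members (1.79%, interval 1.28 to 2.51%) against 3.41% of the regions of 2 to 6 libraries and 0.827% of constant promoters. TBX (AGGTGTNA) was matched in 57 members (3.09%, 3.53% and 2.15% in the same order) and the SRF CArG box in 48 (2.61%, 2.23% and 1.36%). NFI was matched in 27 (1.47%, 0.824% and 0.386%), ETS (CCGGAAGT) in 21 (1.14%, 0.647% and 7.83%) and NRF1 in 16 (0.869%, 0.132% and 3.87%). None of the 12 motifs was held by 455 members. The same letters in another order were matched in 0 members for CTCF, 23 (1.25%) for AP1 and 34 (1.85%) for MEF2. Each motif was counted on its own, so that matches of different motifs may overlap. Near the summit, within 50 bp, lay 294 of the 688 AP1 matches, 43 of the 138 MEF2 matches and 12 of the 37 CTCF matches.

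**Figure D4:**
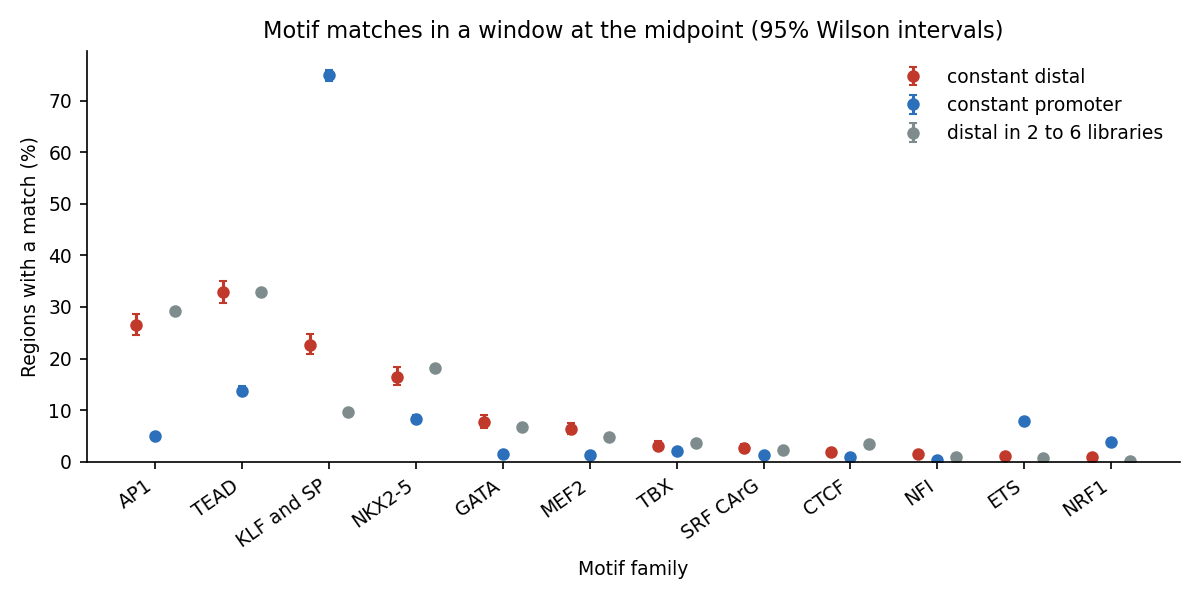
Share of regions with a motif match in a window around the midpoint (vertical axis, percent) for 12 motif families (horizontal axis), in constant distal regions, constant promoters and distal regions held by 2 to 6 libraries. Bars are 95% Wilson intervals, and KLF and SP matches reach 22.7% in constant distal regions against 74.9% in constant promoters.

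Members with an AP1 match had higher medians at P3 and P7 than those without. The median fold enrichment with and without a match was 9.79 and 8.01 in P3 replicate 1, 10.5 and 8.64 in P3 replicate 2 and 7.60 and 6.44 in P7 replicate 1, with a smaller gap of 5.77 and 5.38 in P7 replicate 2. At E18.5 the values were 5.88 and 5.80 in replicate 1 and 5.89 and 5.98 in replicate 2, which were close. Peak strength was among the values behind the choice of members, so the difference is given without a test. A peak in all 8 libraries was held by 44.6% of the members with the match and by 49.5% of those without it.

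The members of the first pair of sequences printed were strong in every library. The Zfp286 region (chr11:62756636-62757342) had fold enrichments of 11.7 and 12.3 at E18.5, then 16.2 and 10.4 at P1, 16.3 and 19.0 at P3, and finally 13.3 and 11.3 at P7. The Gm43980 region (chr6:49236355-49236700) had 15.4 and 20.9, 31.6 and 22.4, 23.5 and 15.9, and 18.8 and 20.3, with a mean of 21.1. It was highest in P1 replicate 1, and its P7 values lay within its E18.5 range, unlike the medians of members with an AP1 match. Both had a median word that occurs once in the 21 chromosome sequences, a count that misses copies outside them. The window of the Gm43980 region was 43.1% soft-masked, against 4.74% for Zfp286. The count alone thus does not settle the place of the Gm43980 peak. The strongest member with a MEF2 match, near AC115970.1 (chr10:96077493-96077872, mean 17.2), shared 39.4% of its words with the mitochondrial genome.

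RNA-seq was not used to choose the members. The nearest genes numbered 1643, of which 883 (53.7%) were protein-coding. Expression was taken as FPKM per gene and compared by limma on log2(FPKM + 1), a scale that understates the change of low genes. A gene was tested where 2 or more libraries reached an FPKM of 1. It was called when its adjusted p was under 0.05 and its log2 fold change exceeded 1 in either direction. The nearest genes were expressed more often than genes at large. Of the 1643, 777 (47.3%) were tested against 25.2% of the 55450 genes listed, and of the protein-coding ones 82.2% against 56.8%. The corresponding shares were 35.3% and 69.7% for the nearest genes of distal regions held by 2 to 6 libraries and 87.9% and 95.4% for those of constant promoters, so that the members' genes lay between the sets. Protein-coding genes with a higher mean FPKM more often had a member within 50 kb, with 6.42% below 1 FPKM, 13.5% from 1 to 10, 16.9% from 10 to 100 and 20.8% from 100 up.

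At P1 against E18.5, 102 of the 777 nearest genes tested were higher (13.1%) and 59 lower (7.59%), where 10.1% and 6.06% of all 13979 genes tested were called. At P3 against E18.5, 133 were higher (17.1%) and 97 lower (12.48%), beside 13.0% and 8.88% of all genes. At P7 against E18.5, 138 were higher (17.8%) and 143 lower (18.4%), beside 15.4% and 12.3%. All 3 comparisons share the E18.5 libraries. The share of lower genes was thus larger at each later time point, while the nearest genes of distal regions held by 2 to 6 libraries were 19.6% higher and 12.7% lower at P7 and those of constant promoters 13.0% and 10.9%. The split moved with the scaling. Of the called nearest genes 63.4%, 57.8% and 49.1% were higher at P1, P3 and P7, against 77.4%, 70.2% and 60.3% with TPM and 51.7%, 49.1% and 44.4% with size factors. The median log2 fold change of the nearest genes was 0.19, then 0.13 and 0.05 at P1, P3 and P7, beside 0.15, 0.16 and 0.14 for all genes tested. At least 1 of the 3 comparisons called 316 of the 777 (40.7%), against 31.8% of all genes, 37.2% for the nearest genes of distal regions held by 2 to 6 libraries and 26.96% for those of constant promoters.

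The samples differed in cell markers over the same days, and these values stand beside every count of nearest genes. Over all genes tested, 15.4% were higher and 12.3% lower at P7. Of 16 cardiomyocyte markers, 16 were lower at P7, and their summed FPKM was 33764 and 43285 at E18.5 and 2970 and 1347 at P7, with none at 0. Of 12 fibroblast markers, 11 were higher at P7, from a sum of 487 and 489 to 3042 and 3773. All 7 erythroid markers matched were lower, from 29046 and 35395 at E18.5 to between 4.70 and 41.0 after birth. Fewer cells of a type and less RNA per cell cannot be told apart in bulk samples, and the part of these marker shifts in the counts of nearest genes was not tested. Of the 12 endothelial markers 2 were higher and 3 lower at P7, and of the 8 macrophage markers tested 1 was higher and 1 lower. Of the 10 smooth muscle and pericyte markers 4 were higher and 3 lower, and their summed FPKM was 516 and 629 at E18.5 and 1732 and 1936 at P7.

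The shares were of similar size at every distance. At P7, 17.8% of the tested nearest genes of members at 2.5 to 10 kb were higher and 18.6% lower, 17.1% and 18.6% at 10 to 50 kb, and 19.6% and 21.6% beyond 50 kb, where 51 genes were tested. Over all genes tested these shares were 15.4% and 12.3%. By motif, 54 of the 251 tested genes next to a member with an AP1 match were higher at P7 (21.5%) and 41 lower (16.3%), beside 16.2% and 19.0% of the genes next to a member without the match. Next to a MEF2 match, 13 of 50 were higher (26.0%) and 14 lower (28.0%), beside 17.3% and 17.997% without it. Next to a GATA match 9 of 79 were higher (11.4%) and 12 lower (15.2%), beside 18.1% and 18.5% without it. Next to a CTCF match, 3 of 16 were higher and 4 lower, beside 17.6% and 18.3% without it. None of these shares was tested against another.

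The strength of members was of similar size whichever way the nearest gene went. The median fold enrichment of the 155 members whose gene was higher at P7 was 5.72 and 6.04 at E18.5 and 6.70 and 5.24 at P7. For the 172 members whose gene was lower it was 5.54 and 5.82 at E18.5 and 6.39 and 5.05 at P7. The medians of the former and the latter were 6.92 and 6.89 in P1 replicate 1, 4.90 and 5.11 in P1 replicate 2, 8.03 and 8.41 in P3 replicate 1 and 9.04 and 8.84 in P3 replicate 2, so that neither group was the higher in all 8 libraries. A peak in all 8 libraries was held by 41.3% of the former and 52.3% of the latter. The 950 members whose gene was not tested made up 51.6% of all.

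The 5 largest falls at P7 among nearest genes included 4 genes of heart muscle structure. Myh7 (chr14:54970684-54994626, minus strand) encodes the beta myosin heavy chain, the slow isoform of the fetal mouse ventricle. Its FPKM was 1620 and 2078 at E18.5, then 36.6 and 73.9 at P1, 23.7 and 26.9 at P3, and finally 7.51 and 5.20 at P7. No later library reached the E18.5 values, and the log2 fold change at P7 was -7.98 ± 0.31 (SE, limma, adjusted p = 2.93e-06). Its member (chr14:55003716-55004569), the one with the MEF2 match printed above, lay between genes 9.52 kb upstream of the start. The fold enrichment there was 5.49 and 5.61 at E18.5, then 5.78 and 4.73 at P1, 5.33 and 4.86 at P3, and finally 3.28 and 3.66 at P7, so the peak persisted and was lowest at P7.

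Myl3, the essential light chain of ventricular myosin, was at 4291 and 5148 FPKM at E18.5, then 1404 and 1988 at P1, 929 and 590 at P3, and finally 189 and 45.7 at P7. The log2 fold change was -5.64 ± 0.56 at P7 (adjusted p = 9.85e-05), whereas at P1 it did not pass the test (-1.49, adjusted p = 0.0642), but was called with size factors, in a fit of the 2 time points alone and without either P7 library. It had 2 members, in an intron of another gene (chr9:110732433-110733157, 9.07 kb upstream) and between genes 13.2 kb downstream of a start within the gene (chr9:110781191-110782146), both with a KLF and SP match. The downstream one had fold enrichments of 7.01 and 7.20 at E18.5 and 8.95 and 7.07 at P7, where Myl3 RNA was lowest.

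Actn2, the alpha-actinin of the Z-disc, was at 542 and 752 FPKM at E18.5 and 38.6 and 14.6 at P7, a log2 fold change of -4.69 ± 0.42 (adjusted p = 6.05e-05). Its member lay in an intron 2.77 kb downstream of the start (chr13:12337776-12338141) and ranged from 3.00 to 5.49 in fold enrichment. Xirp1, an actin-binding protein of the intercalated disc, was at 69.3 and 50.2 FPKM at E18.5 and 2.53 and 0.924 at P7 (-4.52 ± 0.34, adjusted p = 3.18e-05). The fall of Fosb, an AP1 subunit induced within minutes of a stimulus, was already there at P1, with 41.5 and 65.4 FPKM at E18.5, 0.955 and 0.909 at P1 and 1.04 and 1.40 at P7 (-4.58 ± 0.27 at P7, adjusted p = 1.22e-05). Its member (chr7:19319474-19320308), 9.84 kb upstream, had fold enrichments of 5.28 and 6.87 at E18.5, then 8.79 and 5.68 at P1, 8.64 and 10.3 at P3, and finally 7.01 and 7.29 at P7, of which only the second P1 value lay within the E18.5 range.

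The largest rises included genes of enzymes and of a secreted protein, of which 4 are given. Hsd11b1, which regenerates active glucocorticoid, was at 0.169 and 1.73 FPKM at E18.5, then 16.2 and 8.60 at P1, 30.9 and 29.6 at P3, and finally 52.9 and 64.1 at P7 (log2 fold change at P7 5.05 ± 0.40, adjusted p = 3.54e-05). Its member, in an intron 11.2 kb downstream of a start within the gene (chr1:193227728-193228008), had fold enrichments of 5.79 and 11.7 at E18.5, then 18.4 and 12.1 at P1, 7.71 and 5.52 at P3, and finally 5.59 and 9.14 at P7. The peak was thus highest in the P1 libraries and its P7 values overlapped those of E18.5, while the RNA was highest at P7.

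Nnmt, a methyltransferase of nicotinamide, was at 2.04 and 0.984 FPKM at E18.5 and 44.3 and 49.0 at P7 (4.28 ± 0.21, adjusted p = 8.25e-06). Its member (chr9:48707250-48707811) lay 102 kb upstream, in an intron, and lacked a peak in P1 replicate 2.

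Cp, ceruloplasmin, a copper protein that oxidises iron, was at 2.90 and 3.28 FPKM at E18.5 and 53.6 and 65.1 at P7 (3.88 ± 0.17, adjusted p = 4.72e-06). The MEF2 match printed above lay in its member 3.05 kb upstream (chr3:19953723-19954287), which lacked a peak in E18.5 replicate 2 and had 6.43 in replicate 1 and 7.05 and 6.09 at P7. Ephx1, microsomal epoxide hydrolase, was at 5.20 and 5.54 FPKM at E18.5 and 102 and 113 at P7 (4.08 ± 0.19, adjusted p = 5.85e-06), with a member in an intron 7.28 kb downstream of a start (chr1:181009698-181010876). The median word of every member next to the genes of large rise or fall given here occurred once.

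**Figure D5:**
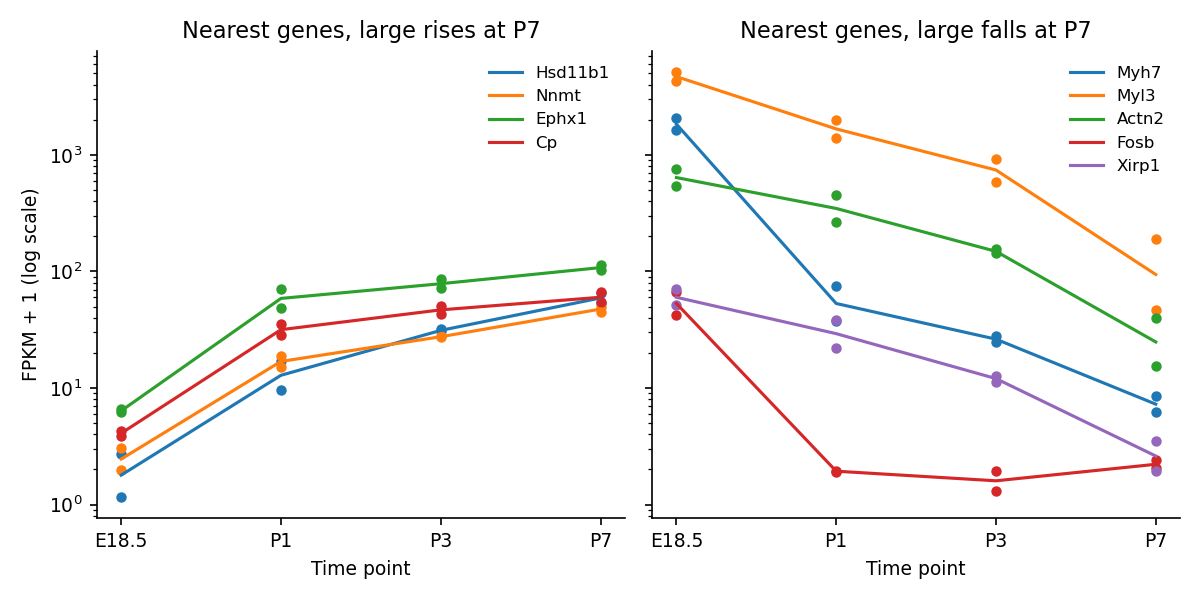
FPKM plus 1 (vertical axis, log scale) of 4 of the nearest genes that rose most and of the 5 that fell most at P7, by time point (horizontal axis). Points are single libraries and lines join the means of log values, and Myh7 fell from 1620 and 2078 FPKM at E18.5 to 7.51 and 5.20 at P7.

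Among cardiomyocyte markers, 4 of 16 were nearest to a member, namely Myh7, Myl3, Ryr2 and Pln. Ryr2, the calcium release channel of the sarcoplasmic reticulum, had a log2 fold change of -3.44 at P7 and Pln, which inhibits the calcium pump, of -3.35, both called. Their members, 26.8 kb upstream of Ryr2 (chr13:12133478-12133964) and 12.8 kb upstream of Pln in an intron (chr10:53324676-53325113), both held a GATA match. Of 12 fibroblast markers only Col1a1, a chain of type I collagen, was nearest to a member (chr11:94928720-94929216, 7.26 kb upstream), and its log2 fold change at P7 was 3.54. Of 12 endothelial markers Pecam1, Tek and Egfl7 were nearest to a member, and none of the 3 was called at P7 (-0.15, 0.05 and 0.88), although Egfl7 was with TPM (1.15) and without E18.5 replicate 1 (1.29). Of 10 smooth muscle and pericyte markers there was Mcam, and of the 10 macrophage and 7 erythroid markers none.

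Among 16 cardiac factors, Gata4, Gata6, Mef2c, Mef2d and Myocd were nearest to a member. That of Gata6 lay 230 kb away. Mef2c, Mef2d and Myocd, a coactivator of SRF, were called lower at P7, with log2 fold changes of -1.40, -1.12 and -1.95, and Gata4 (-0.57) and Gata6 (-0.80) were not called. The call of Mef2d was lost with TPM (-0.89) and without P7 replicate 2 (-0.96). Mef2c had 2 members, at 6.41 kb (chr13:83565462-83566421) and 21.4 kb (chr13:83603739-83604735), the first with a MEF2 match and peaks of 5.79 and 5.82 at E18.5, then 9.32 and 6.87 at P1, 11.8 and 9.35 at P3, and finally 7.36 and 3.61 at P7. The member near Gata4 held a median word that occurs 26498 times, so that its place is uncertain. The list as a whole had 0 higher and 7 lower at P7 of 15 tested, beside 15.4% higher and 12.3% lower over all genes. Of the 12 genes of chromosome architecture, such as Ctcf and the cohesin subunits, none was nearest to a member and none was called at P7.

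Of 9 AP1 genes, Fos, Fosb and Batf were nearest to a member. Fos was called lower at P7 with a log2 fold change of -4.17, and Batf did not pass the fold limit (0.86). Batf passed it with TPM (1.19), with a pseudocount of 0.1 (1.03), without E18.5 replicate 1 (1.06) and without P7 replicate 2 (1.02). The 2 members of Fos lay 18.4 kb upstream (chr12:85454964-85455985) and 11.2 kb downstream (chr12:85485773-85486406) of the nearest start. The former had fold enrichments of 9.81 and 8.26 at E18.5, then 8.82 and 5.87 at P1, 10.5 and 12.1 at P3, and finally 8.84 and 7.92 at P7. Of the 9 genes in the list 1 was called higher and 4 lower at P7, beside the same 15.4% and 12.3% over all genes.

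Most nearest genes had 1 member (1481 of 1643), 139 had 2, 19 had 3 and 2 had 4. Apart from Rny3 and Gm25283, the genes with most included Gm47543 (4), a predicted gene listed at 0 FPKM in all 8 RNA-seq libraries, and Miga1 (3). The 4 members near Gm47543 lay between genes on chromosome 9, at 21.4 to 51.1 kb from the nearest start, and their mean fold enrichments ranged from 5.39 to 8.33.

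Members lay near several genes that the study describes beside its accessibility data. Miga1, named Fam73a there, had 3 members in its introns, the closest of which lay 38274 bp from the start of Nexn, a gene for an actin-binding protein of the sarcomere. In the study, an accessible element nearest to Fam73a contacts the Nexn promoter by HiChIP and has heart enhancer activity. HiChIP also linked distal elements to Hmgb2, Timp3 and Csf1 there. Whether members are among these elements was not examined. Nexn was at 129 and 125 FPKM at E18.5, then 97.8 and 123 at P1, 78.9 and 75.4 at P3, and finally 28.4 and 21.6 at P7, a log2 fold change of -2.31 ± 0.16 (adjusted p = 2.61e-05), while Miga1 was at 4.60 and 4.71 at E18.5 and 4.26 and 3.96 at P7 and was not called (-0.15, adjusted p = 0.415). The 3 members had fold enrichments of 4.36, 7.65 and 8.68 in P7 replicate 1 and 3.84, 4.43 and 7.02 in P7 replicate 2. Timp3, an inhibitor of metalloproteinases, had a member 36.9 kb downstream of the nearest start (chr10:86339183-86340398) and was higher at P7 (1.12 ± 0.14, adjusted p = 0.000266). Adamts1, a metalloproteinase of the ADAMTS family, was the gene nearest to a member at 43.2 kb (chr16:85756079-85756746) and was lower at P1 (-1.33 ± 0.12, adjusted p = 0.000211). Within 100 kb lay also 2 members each of Tnnt2, Hmgb2 and Csf1 and 1 of Cfap20, and none of Irs2 or Gstm1.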

How the data were processed

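ATAC-seq and RNA-seq were measured in mouse left ventricular cardiomyocytes at 4 time points, E18.5 to P7, as pairs of libraries grouped by the labels. Per the study's methods, the authors trimmed the reads, aligned them to mm10 with Bowtie2, removed duplicates with Picard, called peaks in each library with MACS2 and removed peaks in blacklisted regions. How reads that align to several places were treated is not given in the sources used here. The deposited lists hold a score (the q-value column times a constant, rounded), a fold enrichment, which is the authors' ratio of signal to local background at the summit, and the −log10 p-value and −log10 q-value that MACS2 gave the authors. The submitters' processing notes name HISAT2 2.1.0 and StringTie 1.3.5 for RNA-seq. The deposited transcript files give FPKM, scaled by the authors for transcript length and aligned reads, TPM, scaled by the authors to a fixed total, and coverage, the mean depth per base, left unscaled by the authors. The authors' own test used edgeR on read counts, which were not used here. Depth was 29.3 to 37.5 M aligned reads per RNA-seq library, worked out from coverage and FPKM. Reads per ATAC-seq library are unknown, and the lists held 13149 to 95257 peaks.

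Peaks were merged at 1 bp with python 3.11.15 and numpy 2.4.6. Transcript starts were the 5′ ends of the transcript lines of the deposited annotation, the same 141767 transcripts in all 8 libraries. Members had a peak in at least 7 libraries and a midpoint more than 2.5 kb from every start, and were joined into clusters at 12500 bp. Sequences and words of 31 bases were read with pysam 0.24.0 from the GRCm38 chromosomes, whose names were matched to those of the files. Motifs were searched within 200 bp of the midpoint. Gene FPKM was the sum over transcripts. The 13979 genes that reached an FPKM of 1 in 2 or more libraries were compared on log2(FPKM + 1) by limma 3.58.1 in R 4.3.3 (1 fit of all 8 libraries, eBayes with trend, two-sided, Benjamini-Hochberg), after the fit had been tested on simulated data. Shares carry 95% Wilson intervals.

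The genes and regions named follow a rule: the 5 members with the highest mean fold enrichment outside chromosome 18, the clusters with most members, the strongest member with a CTCF, MEF2 or AP1 match, the 5 genes nearest to most members, the called nearest genes without overlap between libraries that rose most (5) and fell most (5) at P7, genes of the fixed lists nearest to a member, and genes the study names beside ATAC-seq. Some genes that the rule names are not reported here. The members, lists and tests were chosen with earlier results of these data known. Alternatives were another number of libraries, equal numbers of top peaks or the upper 0.5 of each list, an overlap of 50 bp, distance limits of 1 and 5 kb, RefSeq starts, joining at 5 and 25 kb, a motif window of 100 bp on each side, other scalings, pseudocounts and filters, a replicate block, and each library left out. The replicate numbers did not pair the RNA-seq samples. HiChIP and rat RNA-seq were not analysed here.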

Additional observations from a re-analysis of the deposited data

Results flagged for a closer look

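The comparisons above use only regions on sequences for which the annotation gives a transcript. On sequences with no transcript line, which are unplaced or unlocalised pieces of the assembly, 33 regions held a peak in at least 7 libraries, out of 275 regions there. They are a signal outside the main measurement, because a distance to a transcript start could not be given for them, and they entered no set and no share. No background level was measured for them here.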

How the results depend on the processing

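The number of members follows the rule closely. It was 1842 with a peak in at least 7 of 8 libraries, 3675 with at least 6 and 888 with 8, and 815 with equal numbers of top peaks and 675 with the upper 0.5 of each list. Leaving out 1 library, with at least 6 of the other 7, gave 1846 to 3158, of which 3158 without E18.5 replicate 1 and 2957 without E18.5 replicate 2 were more than 1.5 times the number reported. The median distance was 9.34 kb with a limit of 1 kb, 14.3 kb with 5 kb and 14.4 kb with RefSeq starts, and 11.5 to 12.1 kb with a library left out. The share with another member within reach was 16.03% with at least 6 libraries, 7.55% with 8, 10.8% with RefSeq starts, 5.28% with equal numbers of top peaks, 4.13% at 5 kb, 17.0% at 25 kb and 9.21 to 13.8% with a library left out. It was 7.88% without members whose sequence recurs, an alternative chosen after seeing the data. The CTCF share was 2.58% with equal numbers of top peaks, 0.923% within 100 bp and 1.68 to 2.16% with a library left out.

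For nearest genes, TPM gave 175 higher at P1, or 20.6% of 848 tested, beside 16.6% of all genes. Taking the nearest gene among those that passed the filter raised the number tested from 777 to 1468. It gave 192 higher (13.1%) and 105 lower (7.15%) at P1, 239 (16.3%) and 168 (11.4%) at P3, and finally 265 (18.1%) and 251 (17.1%) at P7. Members of 8 libraries alone, with 405 genes tested, gave 52 (12.8%) and 33 (8.15%), 60 (14.8%) and 54 (13.3%), and 62 (15.3%) and 79 (19.5%). For both of these alternatives, the shares over all genes were 10.1% and 6.06%, 13.0% and 8.88%, and 15.4% and 12.3%. With each RNA-seq library left out, where the lone sample is assumed to vary like the other groups, the numbers were 80 to 139 higher and 49 to 66 lower at P1, 112 to 156 and 89 to 100 at P3, and finally 119 to 153 and 127 to 151 at P7. The median log2 fold change of all genes tested was 0.15, 0.16 and 0.14, against 0.33, 0.36 and 0.35 with TPM and 0.03, 0.03 and 0.04 with size factors. A replicate block called 161, 230 and 281 nearest genes, the same genes as without it. The deviations of equally numbered libraries correlated at -0.0964 to 0.171, so the numbers name the samples only. No call of a named gene changed sign. The order of higher and lower nearest genes turned at P3 with size factors (107 higher and 111 lower, against 133 and 97) and at P7, where 138 and 143 were reported, with TPM (202 and 133), a mean FPKM of at least 5 (114 and 101), the nearest gene among those that passed the filter, and without E18.5 replicate 1 (153 and 143) or P7 replicate 2 (134 and 127). Several log2 fold changes that were not called in the main fit crossed 0 between alternatives, such as those of Gata4 at P3 (-1.23 to 0.12), Mef2c at P1 (-0.35 to 0.04) and Miga1 at P7 (-0.24 to 0.07). Without P3 replicate 1, the fall of Gata4 at P3 exceeded the fold limit (-1.23). Among named genes, the calls of Xirp1 at P1, Pln and Tnnt2 at P3 and Mef2d at P7 were lost under at least 1 alternative. The E18.5 peak lists are the shortest, and leaving either out raised the number of members most. P1 replicate 2 held the smallest share of members (76.8%, against 84.7% and 90.1% at E18.5), and 2690 were found without it. A missing peak does not show closed chromatin. The cause of these shifts was not tested.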

Other observations

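The following members were looked at after their values were seen and fall outside the rule for named regions. Beside Gm48224, the strongest members whose median 31-base word occurs once and is not mitochondrial lay near AC154187.1 and Hic2, a zinc finger repressor. The AC154187.1 region (chr17:70963588-70963907) lay in an intron 4.14 kb upstream of the nearest start and had fold enrichments of 26.0 and 29.0 at E18.5, then 30.9 and 31.3 at P1, 30.4 and 27.2 at P3, and finally 27.01 and 25.9 at P7. The Hic2 region (chr16:17222194-17222538) lay between genes 11.2 kb upstream and had 26.8 and 32.2, 30.8 and 25.6, 30.8 and 27.7, and 26.7 and 25.4 in the same order. Both were 8-library members with a ratio of the highest to the lowest library of 1.21 and 1.27, and neither held a CTCF, AP1 or MEF2 match. One strong member lay in an exon 7.23 kb downstream of a start of Lars2, the mitochondrial leucyl-tRNA synthetase (chr9:123461784-123462261), with fold enrichments from 19.0 to 25.7.

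Members were found on every chromosome, from 136 on chromosome 11 and 125 on chromosome 4 to 31 on the X chromosome and 4 on the Y chromosome. The nearest gene was protein-coding for 997 members, a lincRNA for 233 and a processed pseudogene for 223.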
